A study of Mus musculus with 2 samples.

Results

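The 9 genes described here encode transcription factors of the forebrain interneuron lineage: Dlx1, Dlx2, Dlx5, Dlx6, Lhx6, Lhx8, Nkx2-1, Sp9 and Gsx2. They were taken by name from a given list, with no threshold on their values, out of 55536 annotated mouse genes. PolyA RNA was sequenced from the whole forebrain of newborn B6NCrl mice (P0, age 0 days). The 2 libraries came from separate pups, pup 1 and pup 3, each from a single forebrain and 10 ng of RNA, and form 1 group. No mutant, treatment or other age was sampled. Sex was not recorded, and 1 donor identifier stands on both pups. No test between groups was possible, so pups are compared by the size of a difference alone.

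Most inhibitory neurons of the forebrain arise in the subpallium, the ventral part of the embryonic telencephalon, in swellings called the medial, lateral and caudal ganglionic eminences. Gsx2 patterns progenitors of the lateral eminence, and the Dlx genes act next in nearly all cells that will use the transmitter GABA. Nkx2-1 specifies the medial eminence and, through Lhx6, the cortical interneurons that later make somatostatin or parvalbumin. Lhx8 directs cells of the same origin toward the cholinergic neurons of the basal forebrain, and Sp9 acts in the lateral and medial eminences and in the striatum. At birth many of these neurons have left the eminences and are spread through cortex, striatum and olfactory bulb, so a whole forebrain holds them as a minority of its cells. In such bulk tissue, fewer cells of a type and less RNA per cell cannot be told apart.

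All 9 factors were detected in both pups at 1 or more TPM (transcript counts corrected for gene length and scaled to a fixed total). The same held for 26.6% of all genes and 59.5% of protein-coding genes. The total was 40964891 estimated counts in pup 1 and 41230878 in pup 3, at which 1 read per kilobase was worth 0.0383 and 0.0340 TPM. The forebrain label was met by the telencephalic genes listed for it, 7 of 7 of which were detected, among them Neurod2, a factor of cortical neurons, at 61.91 TPM in pup 1 and 61.46 in pup 3. Several of the factors also act outside the brain, and markers of those tissues were low. None of 4 lung genes reached 1 TPM in both pups, with Sftpa1 and Scgb1a1 at 0. Of 5 thyroid genes Slc5a5 and Tshr did, while the defining Tg (0.30 and 0.10 TPM) did not. Alpl alone of 6 bone genes, and Adcy3 and Ebf2 of 5 olfactory epithelium genes, also reached it.

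The factors spanned a 76.1-fold range, from Dlx1 at a mean of 99.4 ± 22.4 TPM (SD, n = 2) to Gsx2 at 1.31 ± 0.191 TPM. Their median mean level, 16.4 TPM, lay close to the median of detected protein-coding genes, 17.1 TPM. Together they held 256 TPM in pup 1 and 194 TPM in pup 3. The order of mean levels was Dlx1, Dlx5, Dlx2, Lhx6, Lhx8, Sp9, Nkx2-1, Dlx6 and Gsx2. Of the 8 pairs of neighbours in that order, 2 overlapped between pups: Lhx6 with Lhx8, and Nkx2-1 with Dlx6. In every other pair the lower pup of the upper gene exceeded the higher pup of the lower gene.

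**Figure D1:**
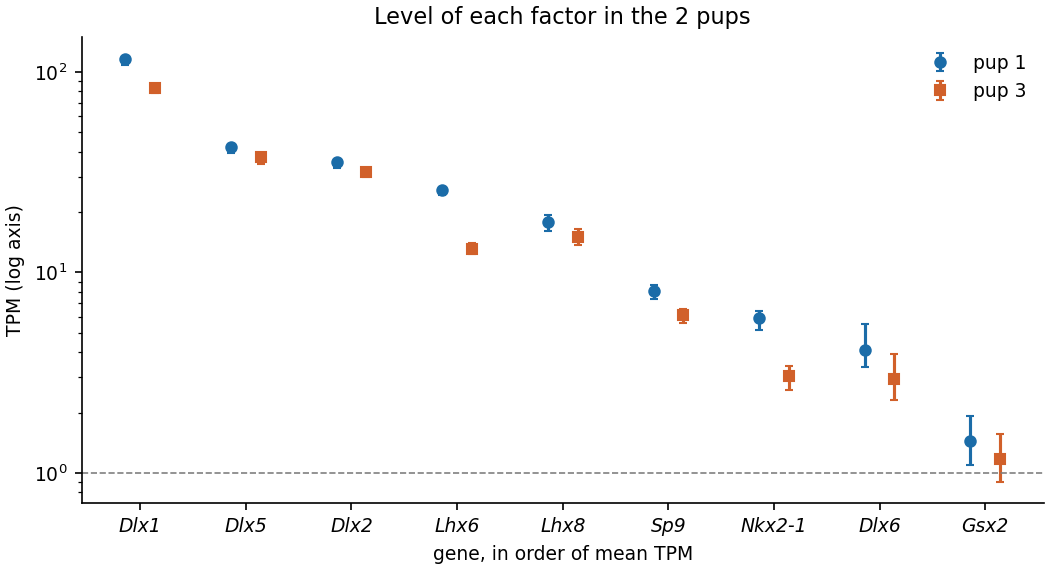
TPM of each factor in pup 1 (circles) and pup 3 (squares) on a log axis, in order of mean TPM, with the deposited interval of each value as a bar and a dashed line at 1 TPM. Dlx1 stands at the top at 115.22 and 83.49 TPM and Gsx2 at the bottom at 1.44 and 1.17 TPM, and the pups are farthest apart at Lhx6 and Nkx2-1.

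The Dlx genes encode homeodomain proteins that bind DNA and switch on genes of the GABA neuron programme. In the genome they lie as pairs of convergent neighbours. Dlx1 (ENSMUSG00000041911.3, mm10 chr2:71528113-71533981, plus strand) lies 9426 bases from Dlx2 (ENSMUSG00000023391.8, chr2:71543408-71546754, minus strand). Dlx6 (ENSMUSG00000029754.13, chr6:6863334-6868568, plus strand) lies 9236 bases from Dlx5 (ENSMUSG00000029755.10, chr6:6877805-6882085, minus strand).

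Dlx1 read 115.22 TPM in pup 1 and 83.49 TPM in pup 3, on 5386 and 4512 estimated counts. Dlx2 read 35.59 and 31.82 TPM, on 2131 and 2181 counts. Both were abundant in each pup, and Dlx1 exceeded its neighbour by 3.24-fold in pup 1 and 2.62-fold in pup 3. Dlx5 read 42.36 and 37.49 TPM, on 1461 and 1455 counts. Dlx6 read 4.08 and 2.94 TPM, on 135 and 113 counts. The second pair was thus far more unequal, with Dlx5 at 10.4 times Dlx6 in pup 1 and 12.8 times in pup 3. Across the pairs Dlx5 and Dlx2 kept nearly 1 ratio, 1.19 in pup 1 and 1.18 in pup 3.

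The remaining genes of the family, Dlx3 and Dlx4, which are known from skin, placenta and skeleton, were under 1 TPM in both pups. Dlx3 read 0.02 and 0.01 TPM on 1 count in each pup, and Dlx4 read 0.68 and 0.39 TPM. The family's reads in these forebrains thus came almost wholly from Dlx1, Dlx2, Dlx5 and Dlx6.

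Each Dlx pair is accompanied by an annotated antisense RNA gene, and no source used here says if strand was kept. Dlx1as spans all 5869 bases of Dlx1 on the other strand, and 335 of its 1630 exonic bases are also exonic in Dlx1. It read 35.54 TPM in pup 1 and 33.21 in pup 3, on 501.84 and 523.16 counts. The counts of Dlx1 and Dlx1as are both fractional but add up to whole numbers, 5888 and 5035, so some reads were divided between them. Reads of this pair in the shared bases cannot be told apart, and the level of Dlx1 is uncertain to that extent.

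Dlx6os1, the long RNA also known as Evf2, spans all 5235 bases of Dlx6 on the other strand. It read 14.00 TPM in pup 1 and 12.67 in pup 3, on 1606 and 1283 counts, and so stood at 3.43 and 4.31 times the level of Dlx6. None of its exonic bases are exonic in Dlx6, and both genes had whole counts. Reads of unspliced Dlx6os1 within Dlx6 would not show in this way, and their part in the counts of Dlx6 was not tested. A short second entry with the same name read 2.44 and 4.34 TPM on only 3 and 6 counts, and Dlx6os2, inside Dlx6, read 0.15 and 0.14 TPM.

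How the level of Dlx1 was made up sets it apart from the other 8 factors. In the other 8, retained-intron transcripts took at most 14.22% of the TPM, that of Dlx6 in pup 1. In both pups most of the TPM of Dlx1 was assigned to 2 transcripts annotated with a retained intron, Dlx1-203 (35.48% of the gene's TPM in pup 1 and 38.83% in pup 3) and Dlx1-206 (35.17% and 37.75%). All retained-intron transcripts together took 70.65% and 76.58%, against 29.34% and 23.42% for protein-coding ones. The protein-coding share alone came to a mean of 26.7 TPM, below the same quantity of Dlx5 (39.7 TPM) and Dlx2 (32.6 TPM). The first place of Dlx1 thus rested on the non-coding transcripts. In counts per kilobase of the longest transcript, Dlx1 still led, with 1310 in pup 1 and 1098 in pup 3 against 1027 and 1022 for Dlx5. That measure includes the 4252 and 3787 counts assigned to retained-intron transcripts, so it cannot show the place of Dlx1 without them.

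The annotation shows how much these transcripts share. Of the 803 bases of Dlx1-206, 626 (78.0%) also lie in exons of the 4111-base coding transcript Dlx1-201, as do 2277 (67.3%) of the 3385 bases of Dlx1-203. Dlx1-201 itself took 5.67% and 4.29%, and the coding Dlx1-205, 702 bases long and wholly inside the exons of Dlx1-201, took 15.71% and 10.27%. The division of reads among such overlapping transcripts is an estimate, and its error was not tested.

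The other Dlx genes had simpler make-ups, except Dlx6. Dlx2-201 took 95.63% of the TPM of Dlx2 in pup 1 and 97.61% in pup 3. Dlx5-201 took 96.61% and 94.75% of Dlx5. In Dlx6 the leading transcript differed between pups, with Dlx6-203 at 46.92% in pup 1 and 20.89% in pup 3, and Dlx6-202 at 35.63% and 44.47%. Dlx6-201 went from 3.23% in pup 1 to 28.67% in pup 3, on the 135 and 113 counts of the whole gene. With so few reads, spread over 4 transcripts, the leading form of Dlx6 was not settled.

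**Figure D2:**
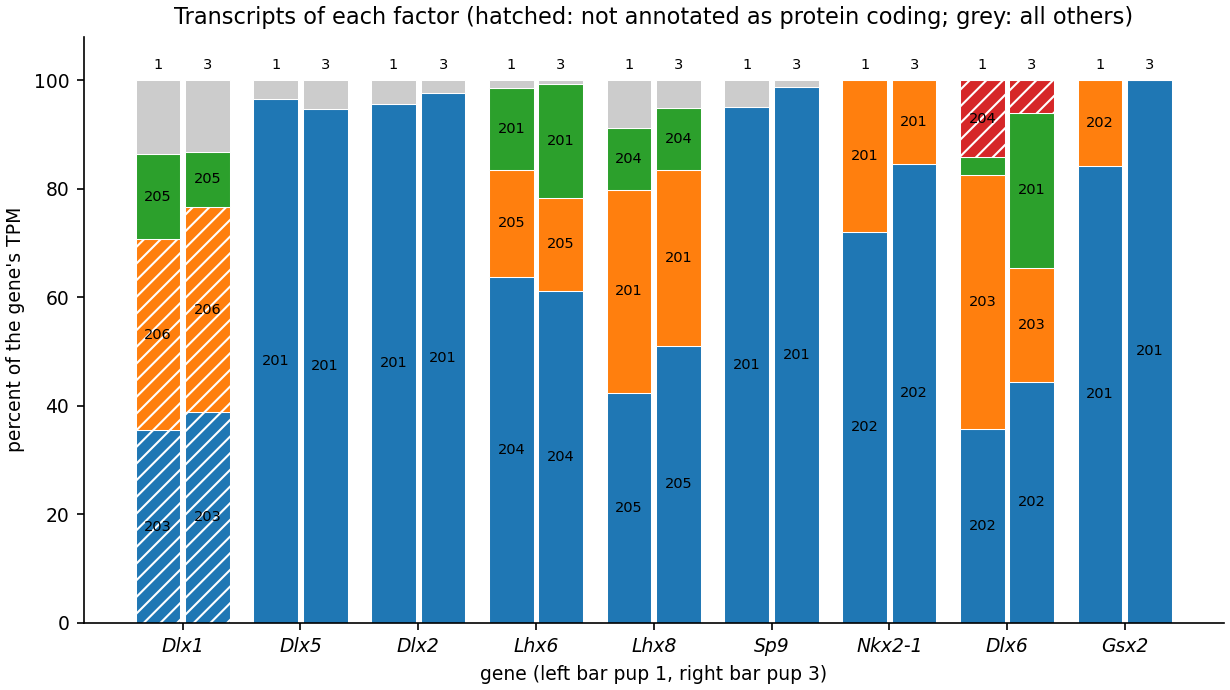
Percent of each gene's TPM taken by its transcripts, left bar pup 1 and right bar pup 3, with the transcript number in each segment, hatching for transcripts not annotated as protein coding and grey for transcripts under 10% in both pups. Most of each Dlx1 bar is hatched (70.65% and 76.58% retained intron), while Dlx2, Dlx5 and Sp9 are filled by 1 coding transcript and Dlx6 differs between the pups.

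The largest differences between the pups among the 9 factors were those of Lhx6 and Nkx2-1, while Lhx8, of the same eminence, differed little. Nkx2-1 (ENSMUSG00000001496.15, chr12:56531958-56536908, minus strand), the homeodomain factor that sets medial identity, read 5.94 TPM in pup 1 and 3.06 TPM in pup 3, on 357 and 201 counts. Lhx6 (ENSMUSG00000026890.19, chr2:36081953-36105408, minus strand), the LIM homeodomain factor that acts downstream of it, read 25.63 and 13.04 TPM, on 2088 and 1206 counts. Both were lower in pup 3, and neither pair of deposited TPM intervals overlapped. Lhx8 (ENSMUSG00000096225.7, chr3:154306294-154330659, minus strand), a LIM factor of the same eminence, read 17.81 and 15.00 TPM, on 732 and 701 counts, with overlapping intervals.

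On the scale of log2(TPM + 1), pup 3 minus pup 1, the difference was -0.92 for Lhx6 and -0.77 for Nkx2-1, or 1.90-fold and 1.71-fold lower in pup 3. For Lhx8 it was -0.23. Lhx6 and Nkx2-1 were the 2 of 9 factors past 1.5-fold. Among the 15463 genes with a mean of 1 TPM or more, 14.3% were past 1.5-fold lower in pup 3 and 1.2% past it higher, 15.5% in all. The ratio of library-scaled counts, pup 3 over pup 1, was 0.574 for Lhx6 (95% exact interval 0.534 to 0.616) and 0.559 for Nkx2-1 (0.468 to 0.667). These intervals cover counting error only, and not the spread between pups or in library making.

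The median of all these genes was itself -0.24, since TPM values were lower in pup 3 for 79.6% of them. Relative to that median, Lhx6 stood at -0.69 and Nkx2-1 at -0.54, and Nkx2-1 was then no longer past 1.5-fold on this scale. The 1 added to TPM shrinks the difference of Nkx2-1 more, at its lower level. With 0.1 added instead, the differences were -0.97 for Lhx6 and -0.93 for Nkx2-1, and the all-gene median was -0.27. With trimmed-mean (TMM) scaling of the counts Lhx6 was also the only one past it, at -0.62, with Nkx2-1 just under at -0.58.

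Within each library, the ratio of Lhx6 to Nkx2-1 was nearly the same, 4.31 in pup 1 and 4.26 in pup 3. Relative to Dlx2, however, Lhx6 went from 0.720 in pup 1 to 0.410 in pup 3, and Nkx2-1 from 0.167 to 0.0962. Lhx8 relative to Dlx2 read 0.50 and 0.471. Such ratios within a library do not depend on scaling. The order of Lhx6 and Lhx8 was reversed between pups, with a ratio of 1.44 in pup 1 and 0.869 in pup 3.

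Most of the TPM of Lhx6 was assigned to a transcript that starts inside the gene. Its transcript Lhx6-204, which begins at chr2:36104060, took 63.78% of the TPM in pup 1 and 61.07% in pup 3. Lhx6-205, from the outermost start at chr2:36105408, took 19.63% and 17.30%, and Lhx6-201 took 15.15% and 20.94%. This division of reads is an estimate too. In the deposited posterior mean values, a second estimate, Lhx6-204 took 60.72% and 58.49%, and Lhx6-201 only 8.99% and 12.45%. The lower level in pup 3 was thus shared by the transcripts: Lhx6-204 read 16.35 and 7.96 TPM, Lhx6-205 5.03 and 2.26 TPM, and Lhx6-201 3.88 and 2.73 TPM. Nkx2-1-202 took 72.00% and 84.57% of Nkx2-1, and Nkx2-1-201 the other 28.00% and 15.43%. In Lhx8, Lhx8-205 took 42.43% and 51.02%, Lhx8-201 37.28% and 32.37%, and Lhx8-204 11.49% and 11.56%.

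The bases just before these starts are printed here for the medial factors whose levels differed most, with both matched starts of Lhx6, and for Dlx2, to which they were compared. The RefSeq promoter table for GRCm38.p6 (mm10) held 9 entries for 7 of the factors, not for Dlx5 or Dlx6. In 6 of the 9, the start lay within 1 base of an annotated transcript start. Each line gives 250 bases up to, and not including, the start, 5′ to 3′ on the minus strand. Capitals mark a core bound by many, but not all, homeodomain proteins, TAATT, and a common GC box, GGGCGG. They also mark the CCAAT box, spelled as its name, and a TATA box with the letters TATAAA. Each was searched on both strands.
Lhx6-204 start, chr2:36104061-36104310: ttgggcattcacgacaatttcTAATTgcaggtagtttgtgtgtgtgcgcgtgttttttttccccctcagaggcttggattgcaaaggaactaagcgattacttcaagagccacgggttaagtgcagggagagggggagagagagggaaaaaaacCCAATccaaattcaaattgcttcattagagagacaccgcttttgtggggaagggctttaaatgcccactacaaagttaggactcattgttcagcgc
Lhx6-205 start, chr2:36105409-36105658: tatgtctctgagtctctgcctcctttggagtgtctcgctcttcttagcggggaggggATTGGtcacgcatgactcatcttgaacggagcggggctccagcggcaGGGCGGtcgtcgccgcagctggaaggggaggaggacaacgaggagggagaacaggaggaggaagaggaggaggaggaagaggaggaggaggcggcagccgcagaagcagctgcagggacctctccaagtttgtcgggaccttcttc
Nkx2-1-201 start, chr12:56536909-56537158: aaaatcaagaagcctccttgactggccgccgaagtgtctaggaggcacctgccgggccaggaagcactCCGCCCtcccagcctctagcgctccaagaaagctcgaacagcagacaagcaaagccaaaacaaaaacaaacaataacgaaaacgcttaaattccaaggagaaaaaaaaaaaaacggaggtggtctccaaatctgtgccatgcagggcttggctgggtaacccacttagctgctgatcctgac
Dlx2-201 start, chr2:71546755-71547004: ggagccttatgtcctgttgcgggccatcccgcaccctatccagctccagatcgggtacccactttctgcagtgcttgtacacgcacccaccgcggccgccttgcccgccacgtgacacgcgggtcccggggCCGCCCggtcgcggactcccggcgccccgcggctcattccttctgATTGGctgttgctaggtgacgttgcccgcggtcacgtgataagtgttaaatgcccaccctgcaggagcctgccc

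The starts of Lhx6 differed in these letters. The window of Lhx6-204 held TAATT 229 bases before the start and CCAAT 96 bases before it, with no GC box. That of Lhx6-205 held a GC box 146 bases before the start and the reverse of CCAAT 193 bases before it. The Nkx2-1 window held only the reverse of a GC box, 182 bases before a start used by the minor transcript Nkx2-1-201, and the Dlx2 window the reverse of a GC box at 119 bases and of a CCAAT box at 74. None of the printed windows held TATAAA, and no marked motifs overlapped in them.

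Over all 32851 promoter entries, windows of the same length held TAATT in 25.0%, the GC box in 32.7%, CCAAT in 33.8% and TATAAA in 12.4%. Of the 9 member windows, TAATT was in 3 (Lhx6, Sp9 and Gsx2), the GC box in 6, CCAAT in 4 and TATAAA in 1, that of Gsx2. Their GC content ran from 46.0% to 68.0%, against a median of 52.4% over all entries. The window of Dlx1, at 68.0%, lies wholly in exons of Dlx1-201, and 99 bases of the Lhx8 window lie in exons of Lhx8-201. The starts of these windows of Dlx1 and Lhx8 matched no annotated transcript start. A match of letters is a description and not a binding site.

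The neighbours of the medial factors gave a mixed picture. AI606473, a non-coding gene that begins 161 bases from Lhx8 on the other strand, read 6.09 TPM in pup 1 and 2.95 in pup 3, a log2 difference of -0.84, against -0.23 for Lhx8. Sfta3-ps, 2530 bases from Nkx2-1, read 1.69 and 0.80 TPM. Gm26973, antisense to Nkx2-1 over 1566 bases but sharing no exonic base, read 0.86 and 0.35 TPM on 6 and 3 counts. Near Lhx6, the protein-coding Rbm18 read 81.58 and 68.70 TPM, a log2 difference of -0.24, and Morn5 read 3.61 and 3.09 TPM. Both thus differed less between the pups than Lhx6.

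Sp9 and Gsx2 both act in the lateral eminence, and Sp9 also in the medial one. Sp9 (ENSMUSG00000068859.5, chr2:73271925-73284706, plus strand), a zinc finger factor of striatal and interneuron precursors, read 8.08 TPM in pup 1 and 6.12 in pup 3, on 890.54 and 786.23 counts. Its log2 difference was -0.35, or -0.11 relative to all genes. Its 3′ part overlaps Cir1 on the other strand and 270 bases are exonic in both genes, and Cir1 read 25.05 and 23.33 TPM. Sp9 was read almost wholly from the coding Sp9-201, at 95% and 98.68% of its TPM. Sp9-201 ends before Cir1 begins. Only the second transcript of Sp9, on 5.87 counts in pup 1 and 1.33 in pup 3, reaches Cir1.

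Sp8, the closest relative of Sp9 and its partner in olfactory bulb interneurons, read 7.61 TPM in pup 1 and 6.45 in pup 3. The ratio of Sp9 to Sp8 was 1.06 and 0.949, so the relatives stood at like levels in each forebrain. Of the 8 other Sp genes listed, 6 were detected in both pups and none was past 1.5-fold. The broadly used Sp3, Sp4 and Sp2 led them at 21.92, 14.95 and 12.26 TPM in pup 1. Sp6 (0.62 and 0.28 TPM) and Sp7 (0.25 and 0.28 TPM), factors of tooth and bone, were under 1 TPM.

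Gsx2 (ENSMUSG00000035946.7, chr5:75075601-75077893, plus strand), a homeodomain factor of dividing progenitors, had the lowest level, 1.44 TPM in pup 1 and 1.17 in pup 3, on 56 and 54 counts. Its relative Gsx1 read 0.98 and 1.14 TPM, on 43 and 56 counts, and no annotated gene lay within 20 kb of Gsx2. Gsx2-201 took 84.20% and 100% of its TPM. The difference of Gsx2 between pups, -0.17, was not detectable at this depth: the count ratio was 0.958 with a 95% exact interval of 0.647 to 1.42. The deposited intervals of Gsx2 overlapped, as did those of Lhx8 and Dlx6.

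All 9 factors had a lower TPM in pup 3 (79.6% of all genes did), and Dlx2, Dlx5, Lhx8 and Gsx2 were instead higher in pup 3 with TMM or DESeq2 scaling and relative to the all-gene median. Dlx2 was also higher in FPKM and in counts scaled by library total alone. The deposited TPM intervals lay apart, lower in pup 3, for 6 of 9 factors and for 44.5% of all genes. The median log2 difference of the factors was -0.35, against -0.24 for all genes. Relative to that all-gene value, 5 factors were below and 4 above.

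For the Dlx genes the log2 differences were -0.46 for Dlx1, -0.37 for Dlx6, -0.17 for Dlx5 and -0.16 for Dlx2, the last 2 of which changed sign with TMM or DESeq2 scaling and relative to all genes. Relative to all genes these became -0.22, -0.13, 0.07 and 0.08. The count ratio was 0.832 for Dlx1 (95% exact interval 0.80 to 0.866) and also 0.832 for Dlx6, where the interval of 0.642 to 1.08 was far wider at its lower depth. For Dlx2 it was 1.02 (0.957 to 1.08) and for Dlx5 0.989 (0.920 to 1.06), both intervals including 1.

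**Figure D3:**
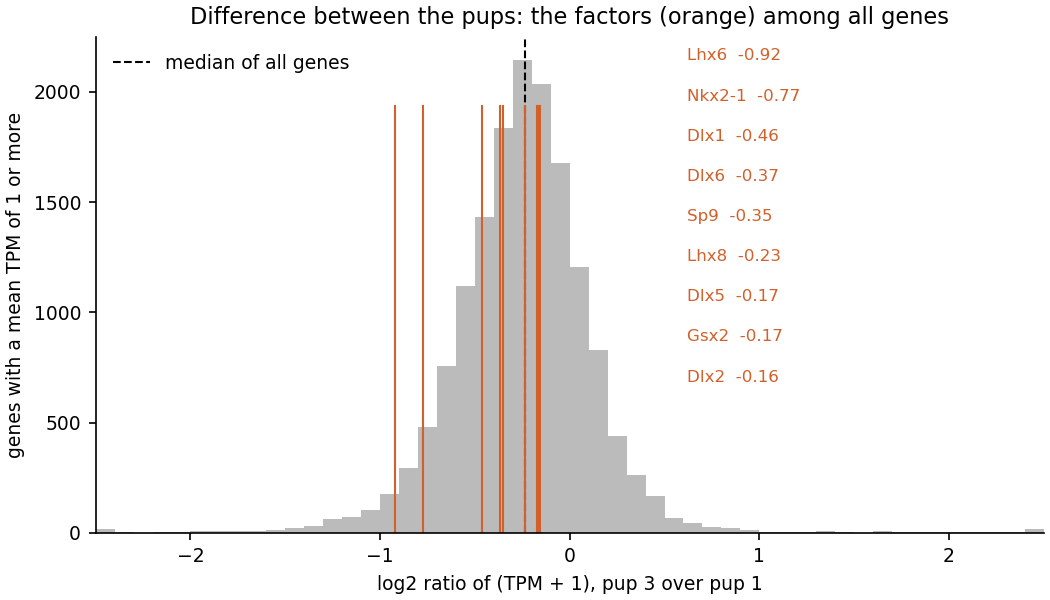
Histogram of the log2 ratio of (TPM + 1), pup 3 over pup 1, of 15463 genes with a mean of 1 TPM or more (values beyond the axis are counted in its end bars), with the median of all genes dashed and the 9 factors as orange lines, their values listed beside. Lhx6 at -0.92 and Nkx2-1 at -0.77 lie in the lower tail, and the other 7 lie between -0.46 and -0.16 around the median of -0.24.

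**Figure D4:**
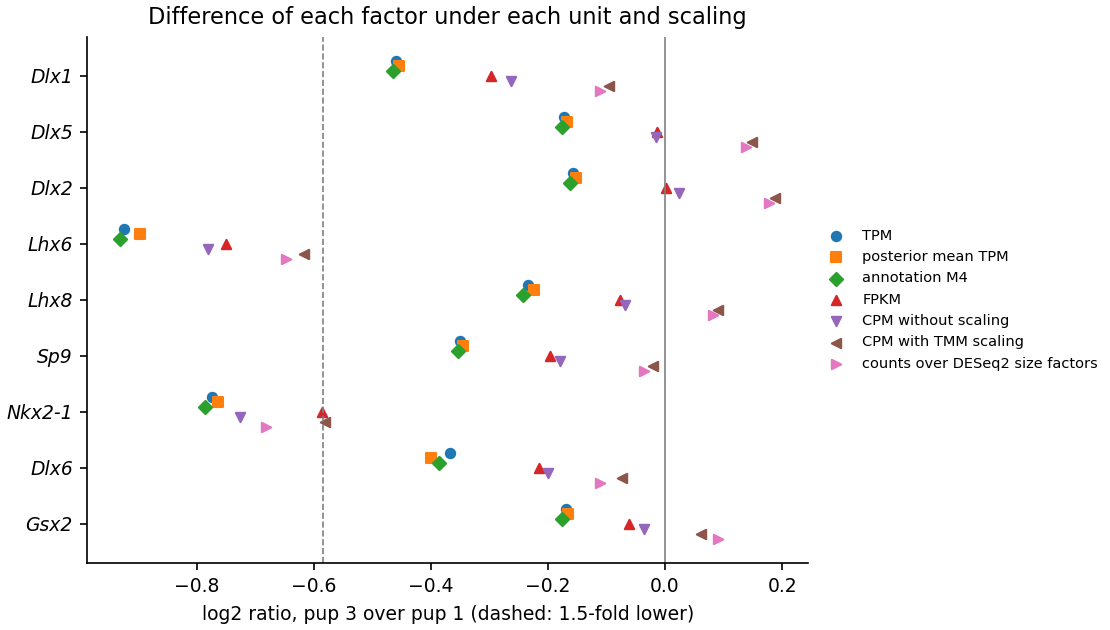
Log2 ratio, pup 3 over pup 1, of each factor in TPM, posterior mean TPM, the older annotation M4, FPKM, library-scaled counts (CPM) without and with TMM scaling, and counts over DESeq2 size factors, with a dashed line at 1.5-fold lower. Lhx6 stays left of that line in each, Nkx2-1 lies just right of it with TMM scaling, and Dlx2, Dlx5, Lhx8 and Gsx2 cross 0 with TMM or DESeq2 scaling. In each unit, 1 was added to the values before the ratio.

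The genes that the factors are known to act on, or to share a lineage with, were read from lists. Their counts past 1.5-fold are on the TPM scale, as for the factors. All 4 GABA neuron genes were detected and lower in pup 3, none past 1.5-fold. The GABA synthesis enzymes Gad1 and Gad2 read 100.58 and 71.19 TPM and 41.75 and 27.55 TPM. The median log2 difference of the 4 genes was -0.55, and all 4 were also below the all-gene median. In library-scaled counts Gad2 differed by more than in TPM, with a ratio of 0.498 (95% exact interval 0.469 to 0.528).

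Of 12 genes of medial interneurons, all were detected, 2 were past 1.5-fold lower in pup 3 and 1 past it higher. Sst, the somatostatin precursor, was high in both pups at 425.97 and 407.55 TPM. Npy, a peptide of many of the same neurons, was higher in pup 3, at 266.82 and 511.37 TPM. The lower genes were Sox6 (38.20 and 21.09 TPM), a factor downstream of Lhx6, and Erbb4 (7.70 and 3.10 TPM), a receptor of migrating interneurons. The list went both ways, with log2 differences from -1.09 for Erbb4 to 0.94 for Npy, a median of -0.25 and an all-gene median of -0.24. Pvalb, which matures after birth, read 2.31 and 1.43 TPM.

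Of 8 genes of caudal interneurons, 7 were detected and 4 were past 1.5-fold lower in pup 3: Calb2, Nr2f2, Prox1 and Adarb2. Calb2, which encodes calretinin, read 236.26 and 140.92 TPM, and Nr2f2 read 76.69 and 36.89 TPM. Npas1 (10.42 and 11.71 TPM) and Htr3a (5.15 and 5.38 TPM) read higher in pup 3, neither past 1.5-fold, so the list went both ways. Vip was under 1 TPM at 0.63 and 0.67. The median log2 difference of this list was -0.74. Several of these genes are also expressed in other forebrain regions.

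All 8 olfactory bulb interneuron genes were detected, led by Meis2 (87.91 and 67.96 TPM), Etv1 (50.14 and 38.68 TPM) and Pbx3 (40.62 and 38.57 TPM), with Sall3 alone past 1.5-fold, lower in pup 3. All 12 striatal projection neuron genes were detected, led by Foxp1 (137.61 and 108.96 TPM), Tac1 (88.23 and 85.53 TPM) and Ppp1r1b (75.51 and 96.14 TPM). Foxp2 and Six3 were past 1.5-fold, lower in pup 3. The median log2 differences of these lists were -0.34 and -0.28.

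The cholinergic genes that Lhx8 is known for were mostly low at this age. Of 8 listed, 5 were detected in both pups, led by Isl1 (38.41 and 31.41 TPM), a LIM factor that striatal neurons also express. Gbx2 read 17.49 and 7.25 TPM and was the only one past 1.5-fold, and which cells this difference came from was not tested. Chat, the enzyme that makes acetylcholine, read 0.39 and 0.12 TPM, on 26 and 10 counts. Of 7 ventral progenitor genes, 4 were detected in both pups, led by Olig1 (113.71 and 101.21 TPM), and Ptch1 alone was past 1.5-fold, lower in pup 3.

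Nkx2-1 is also a factor of the hypothalamus, the ventral part of the forebrain behind the telencephalon. Of 12 hypothalamic genes, 3 were detected in both pups (Fezf1, Nkx2-2 and Pomc), and their summed level was 23.6 TPM in pup 1 and 10.5 TPM in pup 3. Of the 4 with a mean of 1 TPM or more, Fezf1 (8.29 and 3.59 TPM), Nkx2-2 (4.97 and 2.73 TPM) and Foxb1 (1.68 and 0.37 TPM) were past 1.5-fold lower in pup 3. Nkx2-4, the closest relative of Nkx2-1, read 0.99 TPM on 42 counts in pup 1 and 0.04 TPM on 2 counts in pup 3, and Rax, a defining gene, read 0.11 and 0. The hypothalamic genes were thus lower in the same pup as Nkx2-1, and their part in its difference was not tested.

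Among relatives of the LIM factors, Lhx9 differed by more between the pups than Lhx6. Lhx9, a factor of the thalamus and neighbouring regions, read 22.14 TPM in pup 1 and 5.05 TPM in pup 3. Lhx1 (4.36 and 2.01 TPM) and Lhx5 (3.03 and 1.14 TPM) were also past 1.5-fold lower in pup 3, at log2 differences of -0.83 and -0.91, against -1.94 for Lhx9. Lhx2, a factor of cortical progenitors, read 37.91 and 34.62 TPM. Of the 10 listed relatives 5 were detected in both pups. The part of these regions in the difference of Lhx6 was not tested.

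Genes listed for telencephalon and cortex went both ways. Neurod6, a factor of cortical excitatory neurons, read 196.84 TPM in pup 1 and 315.67 in pup 3, past 1.5-fold higher, and Emx1 read 23.80 and 32.62 TPM. Emx2 was the 1 gene of the 7 past 1.5-fold lower in pup 3, at 9.26 and 3.75 TPM. The median log2 difference of these 7 telencephalic genes was 0.02. The part of regional genes in the differences of Lhx6 and Nkx2-1 was not tested.

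**Figure D5:**
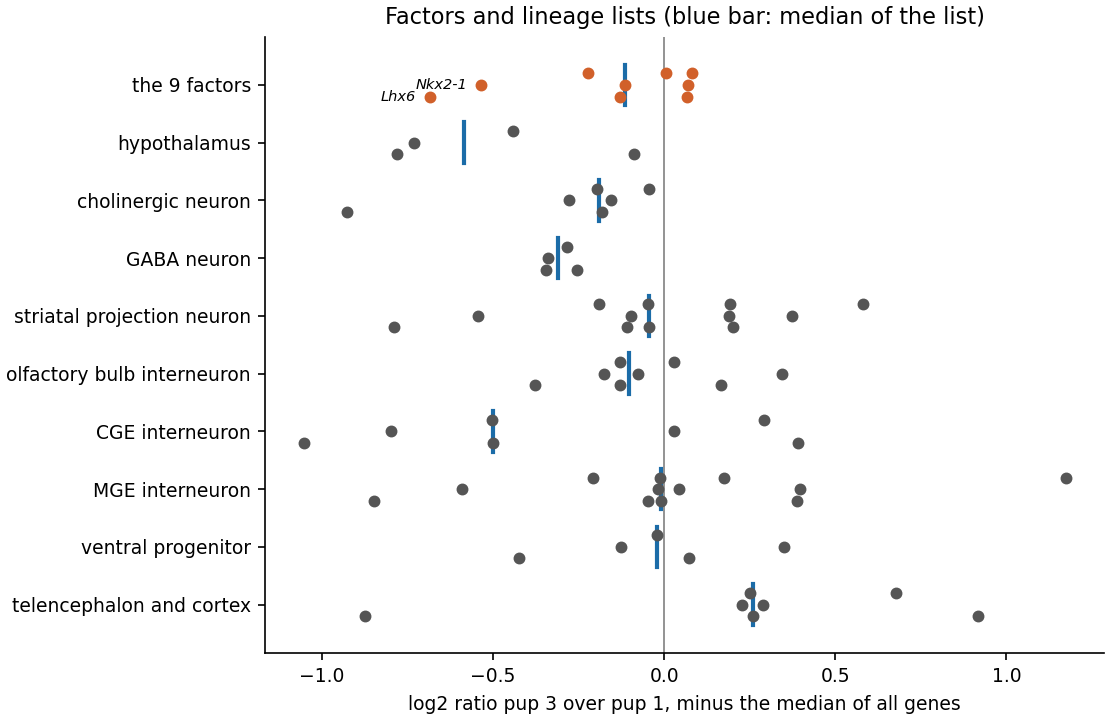
Log2 ratio pup 3 over pup 1 minus the median of all genes, 1 point per gene with a mean of 1 TPM or more, for the 9 factors (orange) and 9 lists (grey), with the median of each list as a blue bar (MGE and CGE stand for the medial and caudal ganglionic eminences). The hypothalamic and caudal interneuron lists have their medians at -0.59 and -0.50, the telencephalic list at 0.26, the factors at -0.11 and the medial interneuron list at -0.01.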

How the data were processed

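PolyA RNA-seq was measured in 2 forebrains (per the labels, oligo-dT priming and tagmentation). The authors deposited gene and transcript tables for mm10 with annotations M21 (used here) and M4 (an alternative). They hold estimated counts, in which the authors divided shared reads between features, deposited TPM and FPKM, and a TPM interval whose level is not stated. Transcript tables also give, deposited as a percent, the part of a gene's TPM that each transcript takes. The sources used here name no aligner or quantifier. Rows that name no gene held 0.000827% and 0.000680% of the counts and were left out.

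Differences are log2((TPM + 1) in pup 3 / (TPM + 1) in pup 1), with 1.5-fold on that scale as the mark of size. The same 1 was added in the other units and scalings, and it shrinks the differences of low genes most. Errors are SDs over the 2 pups. Intervals of count ratios are exact binomial (95%, SciPy 1.17.1), with the step tested on simulated data. TMM factors came from edgeR 4.0.16 and size factors from DESeq2 1.42.0, on counts rounded to whole numbers, and no differential test was run. The text names the 9 factors, genes within 20 kb of them, their family members, the 3 highest genes of each other list with any needed for a count, and transcripts with 10% or more of a gene's TPM in a pup. Some listed genes are not reported here by name. Genes named beyond this rule were chosen after their values were seen. The members and lists were chosen with earlier results of these data known. Symbols, coordinates and exons came from the M21 annotation, and promoters from RefSeq (GRCm38.p6). Alternatives were other units, scalings, thresholds, the M4 annotation and each pup alone.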

Additional observations from a re-analysis of the deposited data

How the results depend on the processing

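All 9 factors were detected with posterior mean TPM, CPM, M4, a minimum of 0.5 TPM and in each pup alone (9 to 9), but 8 at an FPKM of 1 and 6 at a minimum of 5 TPM. The median log2 difference of the factors, -0.35 in TPM, was -0.20 in FPKM, -0.18 in unscaled CPM, -0.020 with TMM scaling, -0.036 with DESeq2 size factors and -0.11 relative to the median of all genes or, chosen after seeing the data, of protein-coding genes. The all-gene median moved with it, to -0.09, -0.10, 0.04 and 0.04 in the first 4 of these, and the cause was not tested. The count of factors past 1.5-fold was 1 with TMM scaling and 1 relative to all genes, and 2 under the other 7 alternatives for it. With the protein-coding transcripts alone, an alternative added after seeing the data, the mean level of Dlx1 was 26.7 TPM and that of the other 8 stayed within 1 SD. In M4, which lacks Lhx8-205, Lhx8-201 led Lhx8 with 45.5%. The ranks of 5 factors moved in CPM, which has no correction for length, and Lhx6 and Lhx8 changed places in pup 3 alone. Dlx2, Dlx5, Lhx8 and Gsx2, none past 1.5-fold, changed sign as given above. Depth limits Gsx2 and Dlx6, whose ratio intervals were the widest and include 1. The intervals of Dlx2, Dlx5 and Lhx8 (0.857 to 1.06 for Lhx8) also include 1. No paired analysis was possible because the libraries form 1 group and no test was made.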
